A study of Mus musculus with 6 samples.

Results

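The respiratory chain genes of mouse quadriceps cells were followed 7 days after injury, those of the nuclear genome beside those of the mitochondrial genome. Members were all genes whose symbol began with Nduf, Cox4, Cox5, Cox6, Cox7, Cox8, Atp5, Uqcr, Sdh or mt-, which gave 111 of the 32285 genes in the matrices. Of these, 98 were nuclear and 13 were mitochondrial (mt-). The nuclear members comprised 37 of complex I, 4 of complex II, 8 of complex III, 20 of complex IV, 17 of complex V and 12 assembly factors. The mt- members comprised 7 of complex I, 1 of complex III, 3 of complex IV and 2 of complex V. At least 100 transcript counts (UMIs) over all cells were found for 107 members, 1 to 99 for 3 members (Cox7b2, Cox8b and mt-Nd6) and none for Cox8c.

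The respiratory chain moves electrons from NADH (complex I) and succinate (complex II) through complex III to oxygen at complex IV, and complex V uses the resulting proton gradient to make ATP. Most subunits are made from nuclear genes and imported, while a few hydrophobic core subunits of complexes I, III, IV and V are read from mitochondrial DNA as long shared transcripts that are then cut into single messages. All of complex II is nuclear. Mature muscle fibres are rich in this machinery, and muscle stem cells gain it as they leave quiescence and differentiate.

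The animals were wild-type C57BL/6 male mice of 2 to 3 months, and the tissue was the left quadriceps. Animals were uninjured, had a subcritical defect of 2 mm, or had a critical defect of 3 mm (volumetric muscle loss), with 4 animals in each group and no other treatment in the labels. Cells were freed by collagenase II and dispase II, red cells were lysed, and each animal received its own hashtag antibody before a group was pooled and sequenced as 1 library with the 10x 5′ v2 assay. Group, pool and library therefore cannot be told apart, and p-values between animals measure only the spread between the animals of these pools. The uninjured, subcritical and critical libraries held 5681346, 4954129 and 7138662 gene UMIs, and 2138, 2732 and 3012 cells were kept, with medians of 1805.5, 1277 and 1589 UMIs. Between 38.6% and 45.4% of the kept cells of a library could be assigned to 1 animal, and 10 to 16 barcodes were shared by any pair of libraries. Clusters were named from marker genes. There were 7 classes with at least 50 cells in both injured libraries: cells like fibro-adipogenic progenitors (FAP-like), tenocyte-like, macrophage-like, dendritic-like, endothelial-like, mural-like and myogenic-like cells. Fibre-like cells were nearly absent from the digests, with 1, 7 and 6 cells in the uninjured, subcritical and critical libraries.

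Nuclear members are commonly described as targets of NRF1 and of ETS factors, so their promoters were searched. All 98 nuclear members matched an entry of the RefSeq table (GRCm38.p6), and 81 had a window of the 250 bases before the gene's start. The NRF1 motif, whose letters are those in capitals in the Atp5k window printed here and which was searched on both strands, was found in 5 of the 81 windows (6.17%) and in 211 of 27025 windows over all genes (0.781%). The ETS motif CCGGAAG, also searched on both strands, was found in 15 of 81 (18.5%) against 1906 of 27025 (7.05%). Whether either motif bears on a change in level was not tested. The windows of the 4 nuclear members called lower in critical macrophage-like cells, by the test given further on, are printed here. They are Atp5k at chr5:108434400-108434649 (minus strand), Ndufa3 at chr7:3617123-3617372 (plus strand), Ndufb1-ps, which RefSeq lists as Ndufb1, at chr12:101975739-101975988 (minus strand) and Atp5md at chr19:47090648-47090897 (minus strand). Each is written 5′ to 3′ on the gene's strand, with a match to the NRF1 motif in capitals.
Atp5k: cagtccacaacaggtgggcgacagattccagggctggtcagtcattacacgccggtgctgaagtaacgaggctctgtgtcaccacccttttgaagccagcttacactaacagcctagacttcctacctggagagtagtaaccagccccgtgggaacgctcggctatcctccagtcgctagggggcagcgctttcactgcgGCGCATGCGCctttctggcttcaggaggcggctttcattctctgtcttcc
Ndufa3: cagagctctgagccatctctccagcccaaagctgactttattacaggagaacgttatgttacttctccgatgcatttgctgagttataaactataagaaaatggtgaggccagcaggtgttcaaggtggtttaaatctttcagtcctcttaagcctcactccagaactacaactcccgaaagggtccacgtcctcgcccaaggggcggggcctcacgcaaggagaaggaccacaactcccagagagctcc
Ndufb1-ps: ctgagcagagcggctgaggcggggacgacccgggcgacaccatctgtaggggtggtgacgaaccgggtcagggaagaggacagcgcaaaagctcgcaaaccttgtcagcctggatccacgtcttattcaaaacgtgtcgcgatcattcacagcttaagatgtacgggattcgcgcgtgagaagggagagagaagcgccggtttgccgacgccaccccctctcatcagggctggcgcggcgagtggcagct
Atp5md: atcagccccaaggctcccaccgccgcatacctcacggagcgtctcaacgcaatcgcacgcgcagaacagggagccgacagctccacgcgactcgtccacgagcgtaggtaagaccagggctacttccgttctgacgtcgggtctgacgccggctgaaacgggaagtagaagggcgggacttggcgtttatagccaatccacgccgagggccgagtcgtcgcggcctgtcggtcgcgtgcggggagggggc
Atp5k held the NRF1 motif 50 to 41 bases before its start, and the windows of Ndufa3, Ndufb1-ps and Atp5md held neither motif in these letters.

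The mt- members took a larger share of UMIs in the critical library than in the subcritical library in each of the 7 classes. Relative to its size, the nuclear share moved by far less. In FAP-like cells the mt- share was 0.165% in the uninjured, 0.163% in the subcritical and 0.321% in the critical library. In macrophage-like cells it was 0.194%, 0.215% and 0.435%, and in endothelial-like cells 0.195%, 0.224% and 0.405%, in the same order. The subcritical share thus lay close to the uninjured share in these classes and the critical share stood apart from both. Mural-like cells had 0.422%, 0.316% and 0.577%, and myogenic-like cells 0.602%, 0.409% and 0.654%. Tenocyte-like cells had 0.223%, 0.190% and 0.364%. Dendritic-like cells were alone in having their highest share in the uninjured library, with 0.340%, 0.153% and 0.278%. The nuclear share ran from 1.91% to 2.57% over the libraries of the FAP-like, tenocyte-like, macrophage-like, dendritic-like and endothelial-like classes. It was higher in mural-like cells (4.72%, 3.64% and 3.02%) and, after injury, in myogenic-like cells (2.40%, 3.94% and 3.66%). These are pooled values with 1 library per group, so they have no test, and their intervals cover counting error only.

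**Figure D1:**
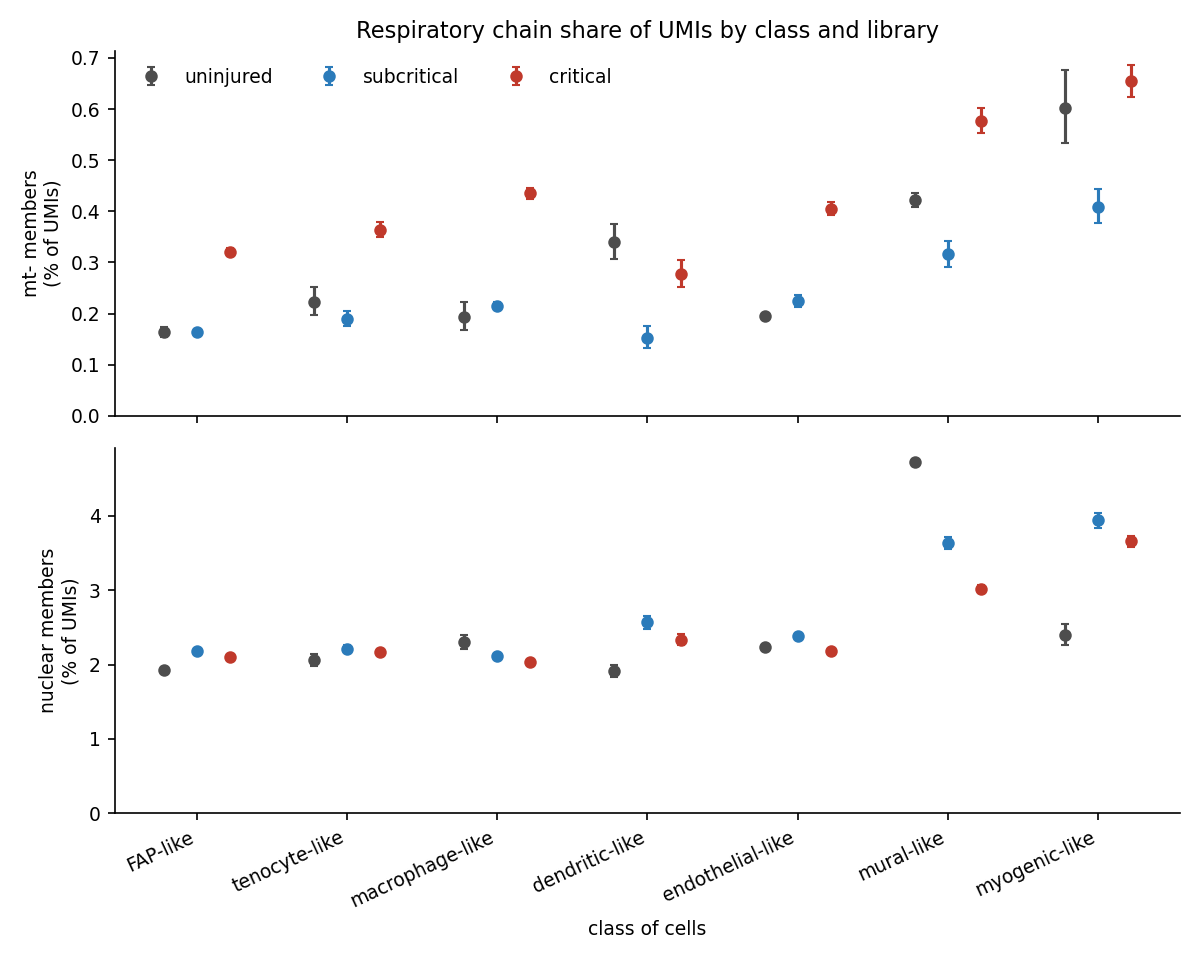
Percent of UMIs from mt- members (upper panel) and nuclear members (lower panel) in 7 classes of cells and 3 libraries, with exact 95% binomial intervals for counting error. The critical mt- share lies above the subcritical one in each class, from 0.278% against 0.153% in dendritic-like cells to 0.654% against 0.409% in myogenic-like cells.

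On the log2 scale of summed counts, the critical minus subcritical difference of the mt- members was 1.02 in macrophage-like cells (95% interval 0.95 to 1.09), 0.98 in FAP-like cells (0.91 to 1.04) and 0.94 in tenocyte-like cells (0.82 to 1.07). It was 0.87 in mural-like cells (0.74 to 1.0), 0.86 in endothelial-like cells (0.77 to 0.94), 0.86 in dendritic-like cells (0.62 to 1.11) and 0.68 in myogenic-like cells (0.54 to 0.82). Nearly every measured mt- gene took part. Higher in the critical library were 13 of 13 in macrophage-like cells (63.2% of all genes measured there were higher), 12 of 12 in FAP-like (55.1%), 11 of 12 in tenocyte-like (51.6%) and 12 of 12 in endothelial-like cells (54.8%). The counts were 12 of 12 in mural-like (57.1%), 11 of 11 in dendritic-like (50.0%) and 11 of 11 in myogenic-like cells (53.8%). The mt- share was lower in cells of higher depth in the 4 classes divided by depth, so it was also compared among cells of like depth. In the bins of 500 to 1000, 1000 to 2000, 2000 to 4000 and at least 4000 UMIs that held enough cells of both libraries of FAP-like, macrophage-like, endothelial-like and mural-like cells, the difference ran from 0.82 to 1.39. In macrophage-like cells of 500 to 1000 UMIs the share was 0.342% in the subcritical and 0.845% in the critical library, and at 4000 UMIs or more it was 0.131% and 0.259%.

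By complex, the mt- subunits of complex IV, the catalytic core of cytochrome c oxidase, were higher by 0.67 (myogenic-like) to 1.06 (macrophage-like) on the log2 scale. Those of complex I were higher by 0.80 (endothelial-like) to 1.29 (dendritic-like), mt-Cytb of complex III by 0.39 (myogenic-like) to 1.06 (macrophage-like), and the complex V pair by 0.44 (dendritic-like) to 0.97 (tenocyte-like). Single genes differed more than complexes. Of the 11 mt- genes measured in each of the 7 classes, 11 were higher in the critical library in all 7, against 4.52% of the 2764 genes measured in all 7. The mt-Atp8 difference ran from 0.26 to 1.89 over the classes, whereas that of its complex V partner mt-Atp6 ran from 0.48 to 0.73, although both messages overlap on 1 transcript. Cytochrome oxidase subunits mt-Co1 (0.70 to 1.07), mt-Co2 (0.71 to 1.33) and mt-Co3 (0.60 to 1.13) were higher with counting intervals above 0 in 7 of 7 classes. Complex I subunits were less even, with mt-Nd1 at 0.74 to 1.09, mt-Nd2 at 0.49 to 1.07, mt-Nd4 at 0.58 to 1.09, mt-Nd4l at 0.72 to 2.34 and mt-Nd5 at 0.31 to 1.62. The counting interval of mt-Nd5 lay above 0 in only 3 of 7 classes. Few counts were found for mt-Nd3, which was higher in 4 of 5 classes (−0.12 to 1.14), and for mt-Nd6, the gene on the opposite strand, measured in 1 class (0.11).

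The nuclear members did not follow. Their summed critical minus subcritical difference lay between −0.03 (tenocyte-like, −0.07 to 0.01) and −0.27 (mural-like, −0.31 to −0.22), with −0.06 in FAP-like, −0.05 in macrophage-like, −0.11 in myogenic-like, −0.13 in endothelial-like and −0.14 in dendritic-like cells. Of the measured nuclear members, 41 of 92 were higher in FAP-like cells, 46 of 89 in tenocyte-like, 41 of 94 in macrophage-like and 28 of 81 in dendritic-like cells. The counts were 25 of 90 in endothelial-like, 20 of 91 in mural-like and 30 of 87 in myogenic-like cells, all below the shares of all genes given for these classes except in tenocyte-like cells, where the share was the same as that of all genes. Complex I ran from −0.07 (dendritic-like) to −0.32 (mural-like) and complex V from −0.03 (tenocyte-like) to −0.28 (mural-like). Complex IV ran from −0.27 (mural-like) to 0.01 (tenocyte-like). Complex II, succinate dehydrogenase, lay between −0.09 and 0.13, and complex III between −0.14 and 0.06, with counting intervals that include 0 in each class.

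**Figure D2:**
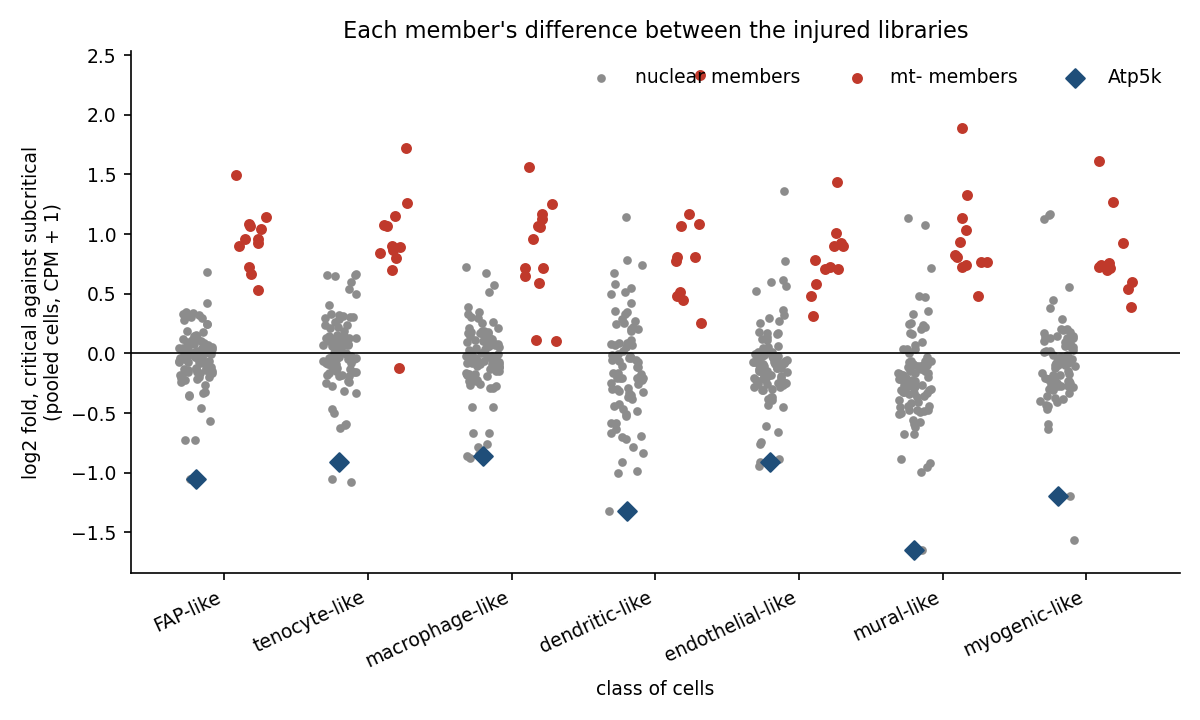
Log2 difference between the critical and subcritical libraries for each member in 7 classes (pooled cells, pseudocount of 1 CPM, genes with at least 10 UMIs over both libraries and at 0 in neither). Grey points are nuclear members, red points are mt- members and diamonds are Atp5k. The mt- members lie above 0 in nearly all cases, and Atp5k lies between −1.64 and −0.86.

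A few nuclear subunits were lower in the critical library in all 7 classes. Of 80 nuclear members measured in all 7, 12 were lower in all 7 (15%, against 3.47% of all genes) and 0 were higher in all 7. Among 84 cytosolic ribosomal protein genes, 16 were lower and 12 were higher in all 7, and among 57 mitochondrial ribosome genes the counts were 2 and 1. The complex V subunit Atp5k, a small membrane subunit at which ATP synthase dimers meet, was lowest, with a median difference of −1.05 over the classes (−1.64 to −0.86) and a counting interval below 0 in 7 of 7. The complex I accessory subunits Ndufa3 (median −0.72, −0.99 to −0.40) and Ndufb1-ps (−0.70, −1.08 to −0.59) had intervals below 0 in 6 and 5 classes. Atp5md, another small membrane subunit of ATP synthase, had a median of −0.58 (−0.66 to −0.36) and an interval below 0 in 6 classes. The others were smaller in size: Atp5e (median −0.29), Atp5j2 (−0.22), Ndufb2 (−0.27), Uqcr11 (−0.24), Cox7c (−0.12), Cox6c (−0.21), Cox8a (−0.18) and the assembly factor Ndufaf8 (−0.32). Of these, Atp5e, Atp5j2 and Cox8a had intervals below 0 in 4 classes and Uqcr11 and Cox6c in 3. Ndufb2, Cox7c and Ndufaf8 had them in only 1. In the other direction, 2 complex III subunits were higher in 6 of 7 classes: Uqcrb (median 0.66, −0.47 to 1.17) and Uqcrh (0.29, −0.13 to 1.14). Their counting intervals lay above 0 in only 2 and 3 classes. The share of all genes that were higher in 6 of 7 classes was not counted.
Of the 12, 11 had a promoter window, and these held the NRF1 motif once (Atp5k) and the ETS motif in Atp5e, Uqcr11 and Ndufaf8. The shares were 9.09% and 27.3%, against 6.17% and 18.5% over all nuclear members with a window. Over all genes they were 0.781% and 7.05%. Shares of 11 windows are coarse, and their difference was not tested.

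Macrophage-like cells allowed a test between animals, with 83 to 258 tagged cells and 134280 to 500354 UMIs per animal. Summed per animal, the mt- members took 0.240%, 0.181%, 0.208% and 0.217% of UMIs in subcritical animals (mean 0.212% ± 0.024, SD, n = 4). In critical animals they took 0.484%, 0.433%, 0.425% and 0.416% (0.440% ± 0.031, n = 4), so that the groups did not overlap. The nuclear members took 2.12% ± 0.15 and 2.00% ± 0.14 (SD, n = 4 each), a difference within the spread of the animals. By edgeR's quasi-likelihood test over 3906 genes, 19 genes were higher (0.486%) and 24 lower (0.614%) in critical than in subcritical animals. Among them were 8 of 11 mt- members tested, all higher, and 4 of 81 nuclear members, all lower. The median log2 difference was 1.04 over the mt- members tested, −0.10 over the nuclear members and 0.01 over all genes.

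Among the mt- genes, mt-Co1, the catalytic subunit of cytochrome oxidase, stood at 601, 521, 567 and 630 CPM (its UMIs relative to all UMIs of the animal's macrophage-like cells, as the usual CPM) in subcritical animals. In critical animals it stood at 1378, 1153, 1097 and 1057 CPM. Every critical animal thus exceeded every subcritical one, and mt-Co1 rose by 0.95 on the log2 scale (SE 0.11, adjusted p = 1.8e-08). Its partner mt-Co2, which takes electrons from cytochrome c, had 341, 299, 276 and 300.2 CPM against 774.5, 671, 687 and 668 CPM. It rose by 1.14 (SE 0.13, adjusted p = 1.96e-09). The third core subunit, mt-Co3, went from 334 ± 65.6 to 734 ± 64.7 CPM (SD, n = 4 each) and rose by 1.09 (SE 0.13). In complex III, mt-Cytb, the cytochrome b that carries the quinone sites, had 207, 170.0, 180.1 and 216 CPM against 424, 374, 432 and 434 CPM and rose by 1.04 (SE 0.14).

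In complex V, mt-Atp8 had 96.1, 55.4, 76.6 and 65.5 CPM in subcritical animals and 223, 222, 225 and 218 CPM in critical animals. The critical animals lay close together (222 ± 3.16 CPM, SD), and mt-Atp8 rose by 1.57 (SE 0.19, adjusted p = 1.8e-08). Its neighbour mt-Atp6, part of the proton channel, had 317, 196, 229.9 and 246 CPM against 409.6, 391, 421 and 399.7 CPM and rose by 0.67 (SE 0.14, adjusted p = 0.00314). Its call was lost without subcritical replicate 2 (adjusted p = 0.0702). In complex I, mt-Nd1 went from 73.5 ± 16.4 to 162 ± 6.53 CPM (rose by 1.08, SE 0.20) and mt-Nd4l from 99.4 ± 37.2 to 246 ± 18.8 CPM (rose by 1.25, SE 0.19). Of the remaining complex I genes, mt-Nd4 had a difference of 0.63 (adjusted p = 0.178) with groups that did not overlap. The differences of mt-Nd2 (0.69, adjusted p = 0.134) and mt-Nd5 (0.54, adjusted p = 0.62) came with overlapping animals. In all, 9 of 11 mt- members did not overlap between the groups (3.12% of all genes were higher in this way).

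Among the nuclear members, Atp5k had 129.7, 144, 203 and 186 CPM in subcritical animals and 59.6, 75.3, 119.9 and 91.9 CPM in critical animals. No critical animal reached the lowest subcritical one, and Atp5k fell by 0.97 on the log2 scale (SE 0.20, adjusted p = 0.00156). Atp5md, with 207, 251, 295 and 262 CPM against 112, 159, 167 and 174 CPM, fell by 0.74 (SE 0.16, adjusted p = 0.00377). Both belong to the membrane part of ATP synthase. Ndufa3 had 202, 266, 241 and 270 CPM against 201, 123, 138 and 162 CPM, so that critical replicate 1 nearly reached subcritical replicate 1. It fell by 0.78 (SE 0.17, adjusted p = 0.00314; 0.0625 without critical replicate 2). Ndufb1-ps had 139, 159, 192 and 156 CPM against 67.0, 92.5, 127 and 114 CPM and fell by 0.69 (SE 0.19, adjusted p = 0.0483). The Ndufb1-ps call was lost when any of 6 of the 8 animals was left out. It was also lost with DESeq2 (adjusted p = 0.101), and in edgeR with a 70% hashtag share (0.0823) or without high doublet scores (0.0896). The edgeR test called no subunit of complexes II, III and IV and no assembly factor among the nuclear members. The largest difference was −0.21 (SE 0.21) in complex II (Sdhd) and −0.34 (SE 0.32) among assembly factors (Ndufaf3). Counting groups that did not overlap, 5 nuclear members were lower and 0 higher (1.84% of all genes were lower in this way).

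**Figure D3:**
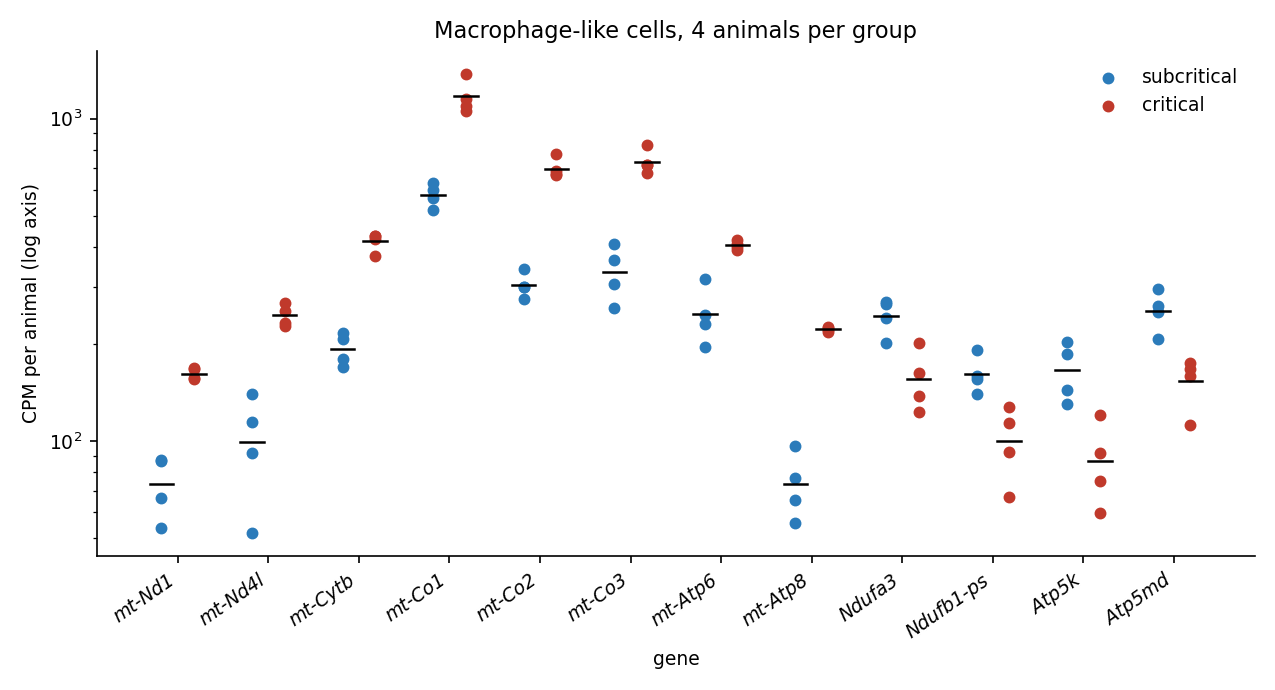
CPM per animal on a log axis in macrophage-like cells of 4 subcritical (blue) and 4 critical (red) animals, for the 8 mt- and 4 nuclear members that passed the test. Black bars are group means, and in each gene shown the 4 critical animals lie on 1 side of the 4 subcritical animals.

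Other mitochondrial gene groups were read beside these in the same macrophage-like animals. None of 51 mitochondrial ribosome genes tested passed (median difference −0.06), nor did any of 12 citric acid cycle genes (0.23), 10 carrier and pore genes (−0.01), 8 genes of defence against reactive oxygen (−0.08), 4 electron carriers outside the rule (0.04), 7 complex IV assembly factors outside the rule (−0.36) or 2 mitochondrial DNA maintenance genes (−0.15). Of biogenesis regulators, 0 of 11 passed the filter on low counts. None of 18 genes of dissociation and stress passed (median 0.13). Only 0.486% of all genes tested were called higher and 0.614% lower. The absence of calls in lists of these sizes is near that share and does not show them unchanged. Of 8 hypoxia genes tested 1 fell (Hk2), and of 85 cytosolic ribosomal protein genes 3 rose and 8 fell, so shifts between these libraries were not confined to the respiratory chain. Transcripts of fibres and of red cells were too few in macrophage-like cells to be tested (0 of 10 and 0 of 5 genes). Over all cells the ribosomal share of UMIs was 12.2%, 15.0% and 14.5% in the uninjured, subcritical and critical libraries. The part of RNA quality or library in the mt- difference was not tested.

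In endothelial-like cells, with 4 subcritical and 3 critical animals (critical replicate 1 had 12 cells and was left out), the mt- share was 0.160%, 0.201%, 0.274% and 0.231% against 0.365%, 0.446% and 0.371%. The groups did not overlap. Their nuclear share was 2.43%, 2.33%, 2.60% and 2.28% in subcritical against 2.21%, 2.16% and 2.14% in critical animals, also without overlap and in the opposite direction. The edgeR test over 1867 genes called 4 higher (0.214%) and 8 lower (0.428%), among them 2 of 9 mt- members and 0 of 72 nuclear members. Of 79 cytosolic ribosomal protein genes tested, 1 was called higher and 8 lower, so each lower call was a ribosomal gene. Without adjustment, 7 of 72 nuclear members had p under 0.05, a share close to the 163 of all 1867 genes, against 8 of 9 mt- members. DESeq2 called 10 of 9706 genes lower, 1 of them among 91 nuclear members. The mt-Co1 level was 347, 387, 728 and 595 CPM in subcritical and 1043, 1145 and 876 CPM in critical animals, and it rose by 1.01 (SE 0.19, adjusted p = 0.00137). The mt-Nd4l level was 33.1, 133, 151 and 105 CPM against 288, 392.4 and 243 CPM, and it rose by 1.49 (SE 0.34, adjusted p = 0.0141). That call rests on few counts, with the lowest animal at 33.1 CPM, and was lost without subcritical replicate 1 (adjusted p = 0.114), subcritical replicate 4 (0.0705), critical replicate 2 (0.0556) or critical replicate 3 (0.102). With a 70% hashtag share it was also lost (0.495). The differences of mt-Co2 (0.86, adjusted p = 0.0539) and mt-Cytb (0.98, adjusted p = 0.0563) were of like size but missed the threshold. So did those of mt-Nd1 (0.85), mt-Atp8 (0.90), mt-Atp6 (0.73), mt-Co3 (0.56) and mt-Nd4 (0.65). Groups did not overlap for 8 of 9 mt- members (4.93% of all genes were higher in this way) and for 10 nuclear members that were lower (4.45%), with 1 higher (Ndufa6). Ndufa3 stood at 314, 302, 477 and 315 CPM against 189, 163.5 and 165 CPM, a difference of −0.97 (adjusted p = 0.0589).

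Dendritic-like cells had 3 subcritical and 4 critical animals with 21 to 36 cells each (subcritical replicate 2 had 16 and was left out). Their mt- share was 0.157%, 0.184% and 0.144% against 0.292%, 0.318%, 0.278% and 0.190%, with no overlap. The edgeR test called 2 genes higher (0.209%) and 3 lower (0.313%) of 957, and none of 5 mt- and 58 nuclear members. Of 80 cytosolic ribosomal protein genes tested, 1 was called higher and 3 lower, so each lower call was again ribosomal. Rps28, Rps29 and Rpl38 were called in macrophage-like, endothelial-like and dendritic-like cells alike. Without adjustment, p was under 0.05 for 75 of 957 genes, among them 3 of 5 mt- and 2 of 58 nuclear members, the latter a smaller share than over all genes. DESeq2 called 3 of 4220 genes and no member. The mt-Co1 level was 496, 479 and 284 CPM against 855, 1031, 886 and 652 CPM (difference 1.12, SE 0.29, adjusted p = 0.0657). Uqcrh, the hinge protein of complex III, stood at 103, 111 and 103 CPM against 265, 202, 311 and 249 CPM without overlap (difference 1.33, adjusted p = 0.373). Atp5k stood at 351, 258 and 206 CPM against 206, 157, 47.9 and 31.1 CPM (difference −1.20, adjusted p = 0.56), the highest critical animal lying just under the lowest subcritical one. Of nuclear members without overlap, 1 was higher (Uqcrh; 3.55% of all genes) and 3 were lower (Atp5k, Ndufa3 and Ndufb1-ps; 4.49% of all genes).

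Whether the critical minus subcritical difference was itself different between endothelial-like and macrophage-like cells was tested within the 7 animals that had enough cells of both. Of 4009 genes, edgeR called 1 (0.0249%), and it was no member. At an unadjusted p under 0.05 there were 193 genes, among them 0 mt- and 2 nuclear members. The mt-Co1 difference was larger in endothelial-like cells by 0.18 (SE 0.22), that of mt-Nd2 smaller by 0.84 (SE 0.54, adjusted p = 0.967) and that of mt-Atp8 smaller by 0.63 (SE 0.43, adjusted p = 0.967). No member thus passed a test of a difference between the classes, and the standard errors of mt-Nd2 and mt-Atp8 were wide.

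Uninjured endothelial-like cells, the most abundant class there, gave a reference by animal. Critical animals had 203 genes higher (10.9%) and 177 lower (9.48%) than uninjured animals, with 8 of 9 mt- members higher. With library sizes taken without ribosomal and mt- genes, 143 were higher and 194 lower, and 7 mt- members remained called. The mt-Co1 level of 361, 348, 314 and 309 CPM in uninjured animals rose by 1.64 (SE 0.17, adjusted p = 1.73e-09). For mt-Cytb, uninjured animals had 217, 152, 204 and 156 CPM and critical animals 361, 572 and 329.6 CPM, a rise of 1.25 (SE 0.21, adjusted p = 3.22e-05). The gain was 1.42 for mt-Atp8, 1.09 for mt-Nd4l, 0.90 for mt-Atp6, 0.87 for mt-Co2, 0.80 for mt-Co3 and 0.82 for mt-Nd4 (adjusted p = 0.0392), while mt-Nd1 gave 0.39 (adjusted p = 0.359). The call of mt-Nd4 was lost without uninjured replicate 2 or 3 or critical replicate 2 or 4 (adjusted p 0.0656 to 0.254). Subcritical against uninjured animals gave 198 genes higher (10.6%) and 175 lower (9.37%), or 125 and 247 under the other scaling, with mt-Co1 the only mt- member called. It rose by 0.63 (SE 0.19, adjusted p = 0.0135), a call lost without subcritical replicate 3 (0.0656) or 4 (0.104). The mt-Co1 call was also lost without the filter on low counts (0.216) and with a 70% hashtag share (0.153). It was lost too under the other scaling, which shifted the median of all genes by −0.14 here and by −0.09 for critical against uninjured animals.

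The makeup of the endothelial-like class differed between the libraries, most of all between the uninjured library and the injured ones. Cluster 1, led by Timp4, Aqp1 and Car4, held 750 uninjured, 30 subcritical and 84 critical cells, while cluster 0, led by Prnd and Apln, held 156, 383 and 377. Within cluster 1 the mt- members were higher in critical than in uninjured cells by 1.11 on the log2 scale (0.94 to 1.27). Within cluster 0 the same difference was only 0.15 (0.01 to 0.28), and subcritical cells lay below uninjured cells by 0.70 (difference −0.70, −0.85 to −0.55). The uninjured cells of cluster 0 had a median of 783.5 UMIs. Cluster 6, led by Sema3g and Gkn3, held 279, 49 and 71 cells with mt- shares of 0.189%, 0.233% and 0.421%, and cluster 11, led by Lrg1 and Selp, held 111, 92 and 80 cells with 0.226%, 0.243% and 0.469%. Critical cells thus stood above both other libraries in clusters 1, 6 and 11, and above the subcritical library but little above the uninjured one in cluster 0.

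The nuclear calls against uninjured endothelial-like animals went both ways. In critical animals 2 of 72 nuclear members rose, against 10.9% of all genes, and 6 fell, against 9.48% of all genes, so neither share stood above that of all genes. Uqcrh fell by 0.99 (SE 0.22, adjusted p = 0.000852) and Ndufa3 by 1.01 (SE 0.22, adjusted p = 0.000872). Ndufa3 had 433, 341, 375 and 331 CPM in uninjured animals, all above the 189, 163.5 and 165 CPM of critical animals. Ndufa4, a subunit of cytochrome oxidase first assigned to complex I, had 649.8, 602, 645 and 629 CPM in uninjured and 394, 359.7 and 442 CPM in critical animals and fell by 0.61 (SE 0.17, adjusted p = 0.00729). Its call was lost without critical replicate 2 (0.0543). Ndufb1-ps fell by 1.11, Ndufa7 by 0.58 and Atp5md by 0.64, with calls that did not hold with DESeq2, with a 70% hashtag share or without critical replicate 3 or 4. The call of Ndufa7 was lost without any of 6 animals and that of Atp5md without any of 9. Risers were Atp5g2, a c-ring subunit of ATP synthase (0.58, SE 0.16, adjusted p = 0.00939), and Uqcrc2, a core protein of complex III (0.77, SE 0.28, adjusted p = 0.0436). The call of Atp5g2 was lost without the filter on low counts (adjusted p = 0.105) and without critical replicate 2 (0.0859) or 4 (0.0803). That of Uqcrc2 was lost without the filter (0.285), with DESeq2 (0.193), under the other scaling (0.0798), with the 70% hashtag share (0.0925), with the replicate block (0.0504) and without any of 5 animals (0.0545 to 0.313).

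In subcritical endothelial-like animals 4 of 72 nuclear members rose and 1 fell against uninjured animals, smaller shares than the 10.6% and 9.37% of all genes. Atp5g2 had 397, 457, 473 and 382 CPM in uninjured and 596, 676.5, 778 and 712 CPM in subcritical animals and rose by 0.70 (SE 0.16, adjusted p = 0.00125). The Rieske iron-sulfur protein of complex III, Uqcrfs1, had 108, 145, 102 and 86.3 CPM against 232, 205, 201 and 198 CPM and rose by 0.89 (SE 0.25, adjusted p = 0.00901). No subcritical animal fell into the uninjured range of either gene, and both calls held when each animal was left out in turn. Without the filter on low counts neither passed (adjusted p = 0.0750 for Atp5g2 and 0.168 for Uqcrfs1), nor with the 70% hashtag share (0.125 and 0.193), and Uqcrfs1 also missed with DESeq2 (0.0547). Ndufb9 (0.71, adjusted p = 0.04) and Atp5l (0.48, adjusted p = 0.0419) also rose, but the first was lost without any of 6 animals and the second without any of 4. Under the scaling without ribosomal and mt- genes, neither Ndufb9 (adjusted p = 0.123) nor Atp5l (0.185) passed.

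**Figure D4:**
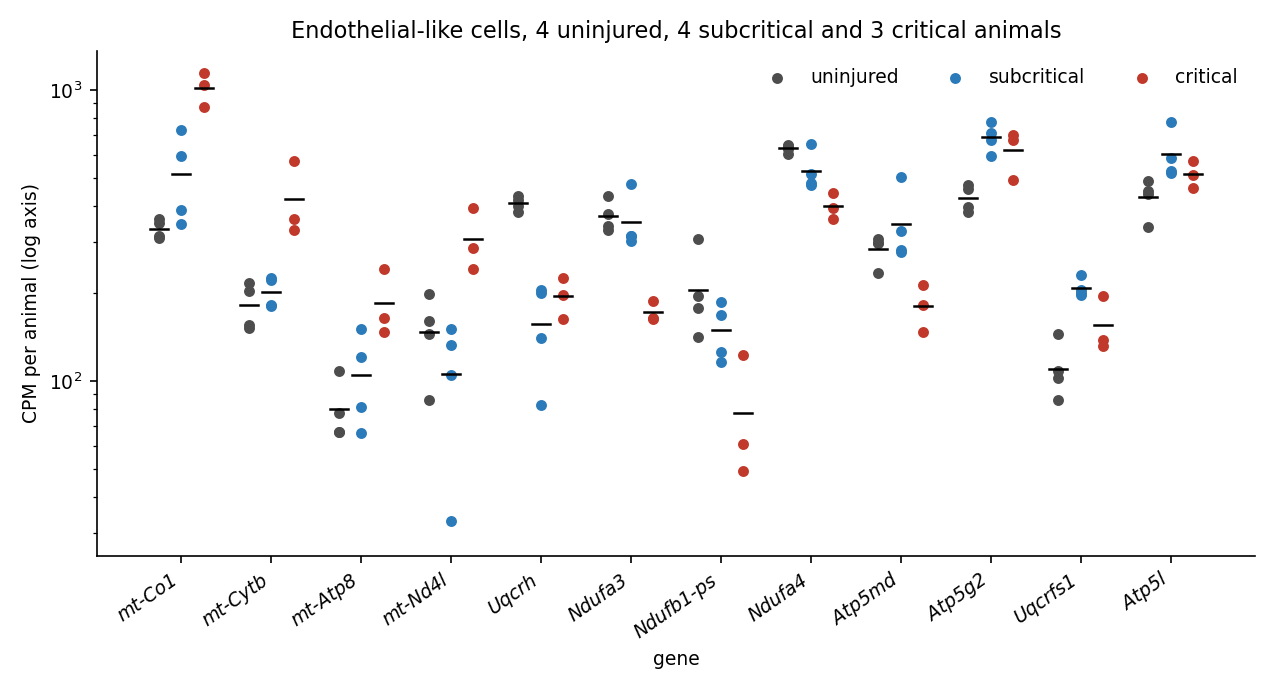
CPM per animal on a log axis in endothelial-like cells of 4 uninjured (grey), 4 subcritical (blue) and 3 critical (red) animals, for 4 mt- and 8 nuclear members. Black bars are group means. Uqcrh lies at 382 CPM or more in each uninjured animal and at 226 CPM or less in each injured animal, while mt-Co1 is highest in the critical animals.

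Uqcrh was lower in both injured libraries than in the uninjured library in each of the 7 classes. In endothelial-like cells it stood at 433, 398, 420.3 and 382 CPM in uninjured animals, 82.7, 205, 201 and 140.0 CPM in subcritical animals and 197, 163.5 and 226 CPM in critical animals. Injured and uninjured animals did not overlap, and Uqcrh fell by 1.33 in subcritical animals (SE 0.23, adjusted p = 2.83e-05). In pooled cells its level in the uninjured, subcritical and critical libraries was 399, 115 and 141.7 CPM in FAP-like, 494, 136 and 125 CPM in tenocyte-like and 409, 109 and 134 CPM in macrophage-like cells. The same order gave 507, 117 and 258 CPM in dendritic-like, 922, 186 and 217 CPM in mural-like and 988, 277 and 314 CPM in myogenic-like cells. Subcritical minus uninjured differences ran from −2.31 in mural-like to −1.34 in endothelial-like cells, and critical minus uninjured from −2.08 to −0.97. It was lower within clusters too, for example at 462, 140.0 and 192 CPM in cluster 0. RefSeq lists pseudogenes of Uqcrh and of Atp5k, and how reads shared with copies were counted is not given in the sources used here, so the values of both genes are uncertain to that extent.

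**Figure D5:**
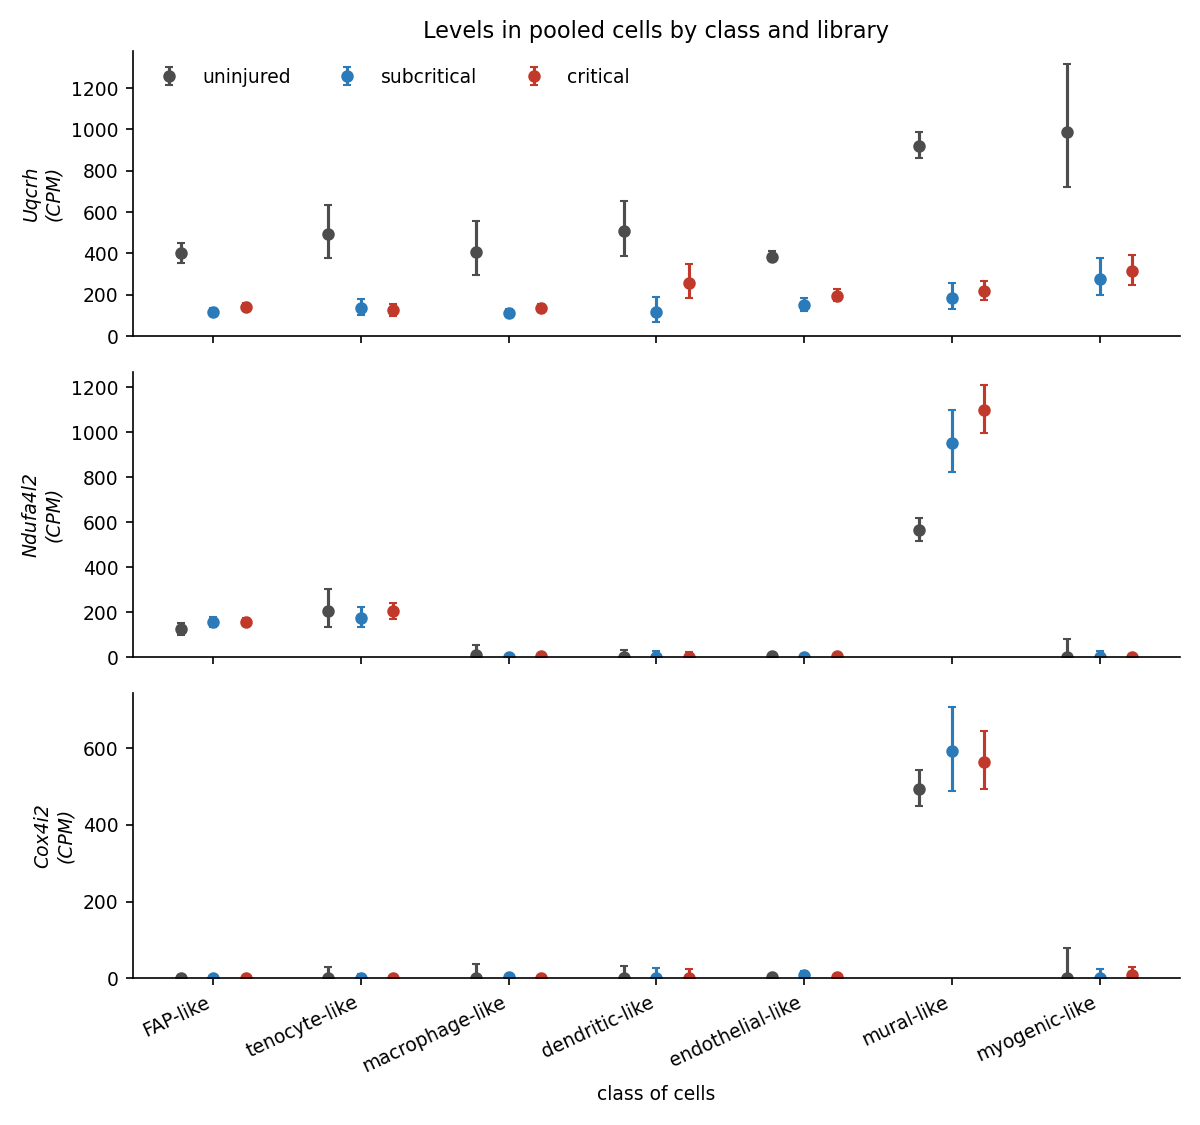
Pooled CPM of Uqcrh, Ndufa4l2 and Cox4i2 in 7 classes and 3 libraries, with exact 95% Poisson intervals for counting error. Uqcrh is highest in the uninjured library in each class, while Ndufa4l2 and Cox4i2 are highest in mural-like cells in each library.

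Mural-like cells (pericytes and smooth muscle cells), pooled over all their cells, had a lower nuclear level after injury than in the uninjured library, but depth and makeup differed with it. Their summed nuclear members were lower by 0.64 in the critical (difference −0.64, −0.67 to −0.61; 10 of 93 higher, against 55.7% of all genes) and by 0.38 in the subcritical library (−0.38, −0.41 to −0.34; 12 of 92 higher, against 48.5%). No complex I member (0 of 37) and no complex V member (0 of 17) was higher in the critical library. Complex III was at −0.90, with Uqcrh at −2.08 and Uqcr11, a small accessory subunit, going from 939 to 483 CPM (−0.96). Complex V was at −0.68, with Atp5k from 474 to 121 CPM (−1.96) and Atp5md from 586 to 289 CPM (−1.02). In complex I, Ndufb1-ps went from 443 to 119 CPM (−1.89) and Ndufa3 from 430.5 to 183 CPM (−1.23). Complex II was at −0.65 with Sdhc, a membrane anchor, from 328 to 181 CPM (−0.86), and complex IV at −0.53 with Ndufa4 from 729 to 261 CPM (−1.48) and Cox7b from 677 to 323 CPM (−1.07). The mt- members were higher by 0.45 in the critical library and differed by −0.42 in the subcritical library.

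The mural-like cells had medians of 3955, 1137.5 and 1464 UMIs in the uninjured, subcritical and critical libraries, and in the uninjured library the nuclear share was larger in deeper cells. In cells of 1000 to 2000 UMIs (30, 75 and 105 cells) it was 2.73%, 3.81% and 3.26%. Here the uninjured library had the lowest share, while the critical library still lay below the subcritical one. In cells of 2000 to 4000 UMIs it was 4.05% in 62 uninjured and 3.14% in 41 critical cells, and it was 5.08% in the 101 uninjured cells above that. Genes of dissociation and stress moved with the pooled nuclear level. Their summed level was 11202, 4292 and 4036 CPM, and 17 of 18 were lower than in the uninjured library in both injured libraries (median log2 differences −0.93 in the subcritical and −1.27 in the critical library). The part of depth and of these genes in the nuclear difference was not tested.

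The mural-like class also changed its makeup. Cluster 13, led by the smooth muscle gene Myh11, held 150 uninjured, 49 subcritical and 55 critical cells, and cluster 8, led by the pericyte gene Rgs5, held 56, 105 and 158. Cluster 13 had the higher nuclear share, 5.21%, 4.91% and 4.06%, against 2.56%, 3.06% and 2.74% in cluster 8. Within cluster 13 the critical minus uninjured difference was −0.36 (−0.41 to −0.31; 19 of 91 higher, against 48.3% of all genes) and the subcritical one −0.09 (39 of 91, against 43.7%). Within cluster 8 they were 0.10 (55 of 89, against 47.8%) and 0.25 (66 of 86, against 45.4%). The lower nuclear level thus held within the smooth muscle cluster of the critical library and had the opposite sign within the pericyte cluster. The mt- members were higher in critical than uninjured cells in both, by 1.15 in cluster 13 and 0.64 in cluster 8.

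Myogenic-like cells (muscle stem cells and their progeny) went the other way from mural-like cells, although only 24 uninjured cells were found. Their nuclear members were higher by 0.72 in the subcritical library (0.62 to 0.81; 73 of 81 higher, against 59.5% of all genes) and by 0.61 in the critical library (0.52 to 0.70; 77 of 84, against 61.2%). All 17 complex V members measured were higher in both. The stress list stood at 19036, 3199 and 3069 CPM in the 3 libraries, with 17 of 17 genes lower in each injured library than in the uninjured one (medians −3.05 and −3.08). Muscle fibre transcripts summed to 85.9, 956 and 396 CPM. The part of either list in the nuclear difference was not tested. Cox5a, a nuclear subunit of cytochrome oxidase, stood at 64.5 CPM in uninjured cells, which is 3 UMIs, and at 831 and 599.8 CPM in the subcritical and critical libraries. Cox7c, an accessory subunit, went from 236 to 741 and 702 CPM. The catalytic subunit of ATP synthase, Atp5b, went from 537 to 1530 CPM in the subcritical library, and Atp5o from 258 to 698 CPM in the critical library. Uqcrh went the other way, at −1.83 and −1.65. The mt- members did not go with the nuclear ones, at −0.56 (−0.77 to −0.35) in the subcritical and 0.12 (−0.06 to 0.31) in the critical library.

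In FAP-like cells, the fibroblast-like progenitors of muscle connective tissue, the nuclear members were slightly higher after injury, by 0.18 in the subcritical (68 of 92 higher, against 43.1% of all genes) and 0.12 in the critical library (60 of 92, against 46.6%). Complex V was at 0.27 and 0.21, with 17 and 14 of 17 members higher. Its c-ring genes led, with Atp5g2 at 333, 539 and 583 CPM and Atp5g1 at 267, 439 and 419 CPM in the uninjured, subcritical and critical libraries. Cox5a stood at 134, 244 and 236 CPM. Atp5k differed between the injured libraries, at 159, 179 and 85.7 CPM. FAP-like cluster 2, led by H19, Ptn and Postn, held 1 uninjured cell against 325 and 454 in the injured libraries, so these differences compare different clusters in part. Its name also depended on the resolution. With coarser clusters the FAP-like class held 158, 334 and 364 cells. The tenocyte-like class then held 20, 404 and 526 cells, against 19, 123 and 145 in the main clustering. Within cluster 3, which held cells of all libraries, the nuclear members were at 0.05 in the subcritical and −0.05 in the critical library, and the mt- members at 0.11 and 1.15.

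Several members have paralogs or tissue forms, and Ndufa4l2 and Cox4i2 had their highest levels in mural-like cells. Ndufa4l2, a paralog of Ndufa4 known to respond to low oxygen, stood at 567, 953 and 1099 CPM in mural-like cells of the uninjured, subcritical and critical libraries. It stood at 123, 156 and 158 CPM in FAP-like and 206, 173 and 204 CPM in tenocyte-like cells, at most 9.97 CPM in macrophage-like and endothelial-like cells, and at 0 in dendritic-like and myogenic-like cells. In mural-like cells Ndufa4 itself went from 729 to 366 and 261 CPM while the pooled level of Ndufa4l2 was higher after injury. Ndufa4l2 was found in 63.6%, 57.1% and 66.7% of mural-like cells in the same order. Makeup and depth of this class differed between the libraries, and their part in either difference was not tested. Cox4i2, the second form of subunit 4 of cytochrome oxidase, stood at 494, 592 and 565 CPM in mural-like cells and at most 7.84 CPM in the other 6 classes. The common form Cox4i1 lay between 543 and 1823 CPM in all 7 classes.
The muscle and heart form Cox6a2 was at most 7.74 CPM in 6 of the 7 classes, whereas Cox6a1 lay between 391 and 966 CPM. In dendritic-like cells it came from 1 of 42, 3 of 113 and 3 of 109 cells, with all 14 uninjured UMIs in a single cell. Cox7a1 reached 39.4 CPM (mural-like, uninjured) and Cox8b 9.97 CPM (macrophage-like, uninjured) in the 7 classes. In the few fibre-like cells Cox7a1 was at 2013, 726 and 1336 CPM, Cox8b at 6038, 1361 and 850.2 CPM and Cox6a2 at 8051, 1451 and 3765 CPM. Cox6b2 was at most 36.1 CPM against 346 to 831 CPM for Cox6b1. Cox7a2 lay between 189 and 1021 CPM, Cox7a2l between 90.6 and 430 CPM and Cox8a between 568 and 2734 CPM, the last with its highest value in uninjured mural-like cells. Atp5g3 lay between 361 and 1596 CPM.

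The genes whose CPM was most like that of Ndufa4l2 over 20 points (classes in libraries) were Rarb (Spearman's rho 0.946), Ednra (0.941), Cnn1 (0.931), Carmn (0.914) and Mrgprf (0.911), out of 10742 genes. For Cox4i2 they were Gper1 (0.926), Ulk1 (0.859), Zfp707 (0.857), Pygm (0.841) and Gm4876 (0.838). Points of 1 class share their cells' identity and points of 1 library their pool and depth, so these values describe likeness only. Several points of Cox4i2 were at 0.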

How the data were processed

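Single-cell gene expression with hashtag antibodies was used from 3 libraries of 4 pooled mice each. The deposited values are raw UMI counts, made with cellranger-6.0.2 per the file headers; bcl2fastq, Cell Ranger and the GRCm39 (mm39) build are named, without roles, per the submitters' processing notes. Gene symbols are older ones than those now in use. Cells with at least 200 genes, 500 UMIs and at most 20% mt- UMIs and without several hashtags were kept; scrublet's calls (1, 23 and 51) were not removed. Scanpy 1.11.5 gave clusters (2000 variable genes, 30 components, resolution 0.8), named from markers. Unnamed clusters held 80, 185 and 210 cells. Counts were summed per animal (at least 20 cells) and class and tested with edgeR 4.0.16 (TMM, filterByExpr, quasi-likelihood, Benjamini-Hochberg adjusted p under 0.05 over all genes), with DESeq2 1.42.0 as an alternative; the code was tested on simulated data. Pooled folds are on the log2(CPM + 1) scale, with exact 95% intervals, for genes with at least 10 UMIs. Only macrophage-like, endothelial-like and dendritic-like cells had 2 groups with several animals at this minimum, so the other classes have pooled values only.

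Named are all mt- genes, members past the threshold (up to 10 per direction), the largest difference per complex in a test, up to 2 per complex in pooled contrasts, fixed isoform pairs and members whose shift the classes shared. Members and lists were chosen with earlier results of these data known. Hashtag calls rested on minima of 2 to 6 counts. UMI counts per animal limit precision, and intervals cover counting error only. Tried as alternatives were other scaling, filters, clusterings, doublet and hashtag rules, a depth minimum, a pseudocount and leaving out each animal.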

Additional observations from a re-analysis of the deposited data

Results flagged for a closer look

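Of 60 groups of 4 animals examined over the members and tested classes, 2 had an animal set apart from the other 3 by more than 95% of such groups allow, where chance gives about 1 in 20. In macrophage-like cells of the critical group, mt-Cytb stood at 374 CPM in replicate 2, below the nearest animal at 424 CPM and the farthest at 434 CPM. It still lay above each subcritical animal. In endothelial-like cells of the uninjured group, Atp5md stood at 235 CPM in replicate 1, below the nearest animal at 298 CPM and the farthest at 308 CPM. Replicate 1 had 20 tagged endothelial-like cells, the fewest of the uninjured animals tested.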

How the results depend on the processing

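The critical against subcritical rise of mt- members in macrophage-like cells kept 8 called genes under the other scaling, DESeq2 and the hashtag number as replicate block, and no called member reversed its sign under any alternative run. Leaving out animals gave 26 to 60 called genes there (26 without critical replicate 4) and 2 to 5 nuclear members lower; without the filter on low counts 69 genes were called. In endothelial-like cells, critical against subcritical, mt- members called higher numbered 4 with scaling without ribosomal and mt- genes, 1 with a 70% hashtag share, 4 with clusters made without member and ribosomal genes (an alternative chosen after seeing the data) and 1 to 2 without single animals; DESeq2 called 1 nuclear member lower. Critical against uninjured, DESeq2 called 228 genes, and leaving out animals gave 205 to 399 (205 without critical replicate 2). Nuclear members higher there numbered 0 without the filter, 1 under the other scaling, DESeq2 and the 70% share, and 0 to 3 without single animals; nuclear members lower numbered 3 with DESeq2 and the 70% share and 3 to 6 without single animals. Subcritical against uninjured, the 70% share called 169 genes. There mt- members higher numbered 0 without the filter, under the other scaling and with the 70% share, and 0 to 1 without single animals. Nuclear members higher numbered 0 without the filter, 2 under the other scaling, 1 with DESeq2, 0 with the 70% share and 2 to 4 without single animals, and 3 were lower under the other scaling. Dendritic-like cells gave 8 called genes with the replicate block, 3 with DESeq2, 3 to 12 without single animals, and 0 to 1 mt- members. The difference between endothelial-like and macrophage-like cells gave 0 called genes without the filter, under the other scaling, with coarser clusters, without high doublet scores and with clusters made without members, 2 with the 70% share and 0 to 4 without single animals.

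Summed log2 differences moved as follows. With coarser clusters, nuclear members were at −0.092 in FAP-like cells (critical against subcritical), and mural-like cells had mt- 0.10 and nuclear −0.59 (critical against uninjured) and mt- −0.74 and nuclear −0.33 (subcritical against uninjured). In cells of at least 1000 UMIs, critical against subcritical, endothelial-like nuclear members were at −0.17 and myogenic-like mt- and nuclear members at 0.94 and −0.16; mural-like mt- members were at 0.31 (critical) and −0.55 (subcritical) and myogenic-like mt- members at 0.46 (critical) against uninjured cells. With CPM without ribosomal and mt- genes, mural-like nuclear members were at −0.60 and −0.31, and myogenic-like nuclear members at 0.48 and 0.60, in critical and subcritical against uninjured cells. Coarser clusters gave 1 nuclear member higher in all classes, but they held no myogenic-like class. Myog and Acta1 then led 1 cluster that was named fibre-like, with 25 uninjured, 99 subcritical and 118 critical cells. The causes were not tested.

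Animals with the same hashtag number did not deviate together (correlations −0.09 to 0.03 in macrophage-like and −0.05 to 0.06 in endothelial-like cells), so the numbers only name animals. With the replicate block, 3 mt- members were called in endothelial-like cells (critical against subcritical) and 7 against uninjured. Of single members, 38 calls were lost over the alternatives and 53 without single animals, while 285 and 307 held. Depth limits endothelial-like and dendritic-like animals most, with as few as 39827 and 27121 UMIs.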

Other observations

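Cluster 9 and cluster 20, which entered no comparison in the main clustering, are given with their mt- shares. The low-depth cluster 9, which took no name, held 8, 137 and 164 cells of the uninjured, subcritical and critical libraries. Its mt- members took 1.26%, 0.621% and 1.72% of UMIs and its nuclear members 0.311%, 0.442% and 0.458%. Cluster 20 held 39 uninjured cells with an mt- share of 3.62% and only 2 and 1 cells in the injured libraries. With coarser clusters it had no counterpart of its own. The mural-like cluster led by Myh11 then held 189, 51 and 56 cells, against 150, 49 and 55 in cluster 13. The cells of cluster 20 thus entered the mural-like values given for coarser clusters. Within the macrophage-like class, cluster 4 (25, 275 and 333 cells) had mt- shares of 0.233%, 0.288% and 0.618% and nuclear shares of 1.99%, 1.29% and 1.22%. It thus had the class's highest mt- share together with a nuclear share below that of the whole class (2.30%, 2.11% and 2.04%).

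Among classes too small for comparison, neutrophil-like cells had an uninjured mt- share of 0.0678% in 120 cells and a nuclear share of 1.43%. Glial-like cells had an mt- share of 0.411% in 78 uninjured, 0.321% in 5 subcritical and 0.660% in 15 critical cells. Lymphatic endothelial-like cells had 0.370% in 38, 0.215% in 15 and 0.469% in 25 cells. Cluster 16, named B-like from its markers, also had Car1, Car2, Ctse and Ermap among its leading genes. It had 0.294% in 41, 0.233% in 50 and 0.246% in 17 cells. Clustering without members and ribosomal genes gave separate clusters led by Cd79a (31, 8 and 2 cells) and by Car1 (12, 41 and 15 cells), so its values compare different cells in part. The fibre-like cells, 14 in all, had nuclear shares of 17.2%, 7.19% and 13.02%, and the 6 critical ones held 2 mt- UMIs.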
